A study of Mus musculus with 2 samples.

Results

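The genes described here are 10 genes whose RNA was lower in both arrays when newborn mouse ureters were cultured with IWP-2, and which are not among the classic feedback genes of WNT signaling. They are *Cthrc1*, *Chl1*, *Sprn*, *Tmem132c*, *Rerg*, *Nnmt*, *Lhx3*, *Pou3f1*, *5830408B19Rik* and *D630010B17Rik*. They were chosen by name, on the ratios of the same arrays, out of 29924 gene names on the array. The ratios of these 10 genes are therefore given as a description, with no test. What was tested are genes that the choice did not use: relatives of the 10 genes, partners in their pathways and genes beside them on the chromosomes. The lists of these genes and the tests were nevertheless chosen with earlier results of these data known.

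All ureters came from wildtype NMRI pups at postnatal day 0 (P0), without any transgene or mutation, and were kept on transwell membranes for 18 h. The control ureters received DMSO as solvent and the treated ureters received 5 µM IWP-2. Each of the 2 two-colour Agilent arrays set 1 control pool against 1 treated pool of 5 to 6 ureters, with 1 pool in a channel. The pools were female in replicate 1, with IWP-2 in the red channel, and male in replicate 2, with IWP-2 in the green channel, so that sex and dye orientation cannot be told apart. The explants hold the whole ureter wall at a single dose and time, and in such bulk RNA fewer cells of a type and less RNA per cell cannot be told apart.

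WNT ligands are secreted lipid-modified proteins. The acyltransferase PORCN attaches the lipid in the endoplasmic reticulum, and IWP-2 blocks this enzyme, so that ligands of the canonical and the noncanonical branch alike are no longer released. In the canonical branch, the ligand stabilises CTNNB1 in the receiving cell, which then acts with TCF/LEF factors on target genes. In the ureter, the epithelium provides WNT ligands and the surrounding mesenchyme, which forms the lamina propria and the smooth muscle layer, responds to them.

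The 10 genes encode proteins of several kinds, and 2 of them are known by clone names only. *Cthrc1* encodes a secreted glycoprotein that can associate with WNT ligands and their receptors and has been linked to planar polarity signaling. *Chl1* encodes an adhesion molecule of the L1 family, *Sprn* a membrane-anchored relative of the prion protein, and *Tmem132c* a transmembrane protein of the TMEM132 family. *Rerg* encodes a RAS-like small GTPase, and *Nnmt* the enzyme that methylates nicotinamide with S-adenosylmethionine as the methyl donor. *Lhx3* and *Pou3f1* encode DNA-binding proteins of the LIM homeobox and POU families, known from the pituitary and motor neurons and from Schwann cells, respectively. No role is given here for *5830408B19Rik* and *D630010B17Rik*.

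As the clone names say nothing about what was measured, the 60-base probes of these transcripts are shown, as the array files give them on the mm9 build. The probe of *5830408B19Rik* lies at chr10:9342745-9342804 on the minus strand, and that of *D630010B17Rik* at chr15:94085907-94085966 on the plus strand.
5830408B19Rik: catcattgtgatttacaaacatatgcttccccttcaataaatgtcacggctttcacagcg
D630010B17Rik: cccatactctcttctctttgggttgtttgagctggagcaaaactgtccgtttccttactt

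The RefSeq table of promoter windows (build GRCm38.p6, 250 bases before to 50 bases after a start site) held 5 windows for 4 of the 10 genes, namely *Lhx3* (2 windows), *Tmem132c*, *Chl1* and *Sprn*. They are shown because these genes were lower together and TCF/LEF factors act at DNA. Both strands of each window were searched for the TCF/LEF cores CTTTGAT and CTTTGAA and for the TATA box TATAAA, and a match is in capitals. The windows that follow are *Lhx3* at chr2:26208200-26208499 (minus strand), *Tmem132c* at chr5:127241576-127241875 (plus strand), *Chl1* at chr6:103510626-103510925 (plus strand) and *Sprn* at chr7:140154610-140154909 (minus strand).
Lhx3: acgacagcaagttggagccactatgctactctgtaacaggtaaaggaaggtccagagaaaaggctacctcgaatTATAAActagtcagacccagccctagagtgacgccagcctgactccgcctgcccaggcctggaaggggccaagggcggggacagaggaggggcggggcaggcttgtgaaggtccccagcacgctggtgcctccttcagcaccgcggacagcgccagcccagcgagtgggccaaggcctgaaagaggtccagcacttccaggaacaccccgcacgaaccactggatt
Tmem132c: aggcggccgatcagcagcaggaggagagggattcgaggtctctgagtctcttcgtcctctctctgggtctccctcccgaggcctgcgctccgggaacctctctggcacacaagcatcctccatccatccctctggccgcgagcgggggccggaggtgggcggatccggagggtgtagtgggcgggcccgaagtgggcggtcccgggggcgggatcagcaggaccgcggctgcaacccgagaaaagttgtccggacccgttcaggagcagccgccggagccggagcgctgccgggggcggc
Chl1: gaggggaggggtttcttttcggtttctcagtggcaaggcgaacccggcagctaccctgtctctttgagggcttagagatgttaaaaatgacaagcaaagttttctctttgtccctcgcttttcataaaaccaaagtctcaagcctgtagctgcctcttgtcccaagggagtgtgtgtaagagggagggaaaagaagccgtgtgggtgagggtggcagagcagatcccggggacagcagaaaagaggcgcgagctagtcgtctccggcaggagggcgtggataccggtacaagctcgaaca
Sprn: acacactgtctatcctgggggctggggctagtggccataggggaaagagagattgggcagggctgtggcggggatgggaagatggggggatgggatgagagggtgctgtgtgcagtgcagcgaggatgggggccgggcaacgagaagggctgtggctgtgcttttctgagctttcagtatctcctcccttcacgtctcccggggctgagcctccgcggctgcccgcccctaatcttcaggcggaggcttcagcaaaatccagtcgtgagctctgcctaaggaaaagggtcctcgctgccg

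Neither TCF/LEF core was present in any of the 5 windows. Over all 32851 windows of the table, CTTTGAT occurred in 3.73% and CTTTGAA in 5.14%, and no match says only that these letters are not in these 300 bases. The only TATAAA lay in the *Lhx3* window shown, at position −176 from the start site, and 13.6% of all windows held one. The GC box GGGCGG, not capitalised, occurred in 4 of the 5 windows (35.7% of all windows), with 5 copies in the *Tmem132c* window. The second *Lhx3* window, at chr2:26206526-26206825, had 71% GC and 28 CpG dinucleotides, and the *Tmem132c* window had 70.3% and 29. The *Chl1* window had 53.7% GC and 13 CpG dinucleotides, which is nearer to the medians of all windows, 52.7% and 7. The *Lhx3* window shown, with 61% GC, and the *Sprn* window, with 62%, also had 13 CpG dinucleotides each.

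The choice of the 10 genes used log2 of IWP-2 over control in each array, from the processed signals of all their probes, and set no numeric limit. On that measure, the value nearest to 0 among the brightest probes was −0.61 (*Lhx3*, replicate 2) and the lowest was −2.30 (*Tmem132c*, replicate 1). Here and below, a log2 ratio is log2 of the treated over the control signal after loess normalization within the array, a signal is in arbitrary units with a floor of 15, and a gene is represented by its brightest probe. All 10 genes were at least 1.5-fold lower in both arrays, as were 0.377% of the 14336 genes tested, a brighter set that holds only 6 of the 10 genes. With the further condition that the control signal exceed 100 in both arrays, 6 of the 10 genes remained, against 0.363% of the 14051 genes with such a control signal. Nothing is read from these shares, since the genes were chosen on this contrast. *Nnmt*, *Pou3f1*, *Rerg* and *Tmem132c* stayed below 100 in the control pools and were left out of the test across genes.

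**Figure D1:**
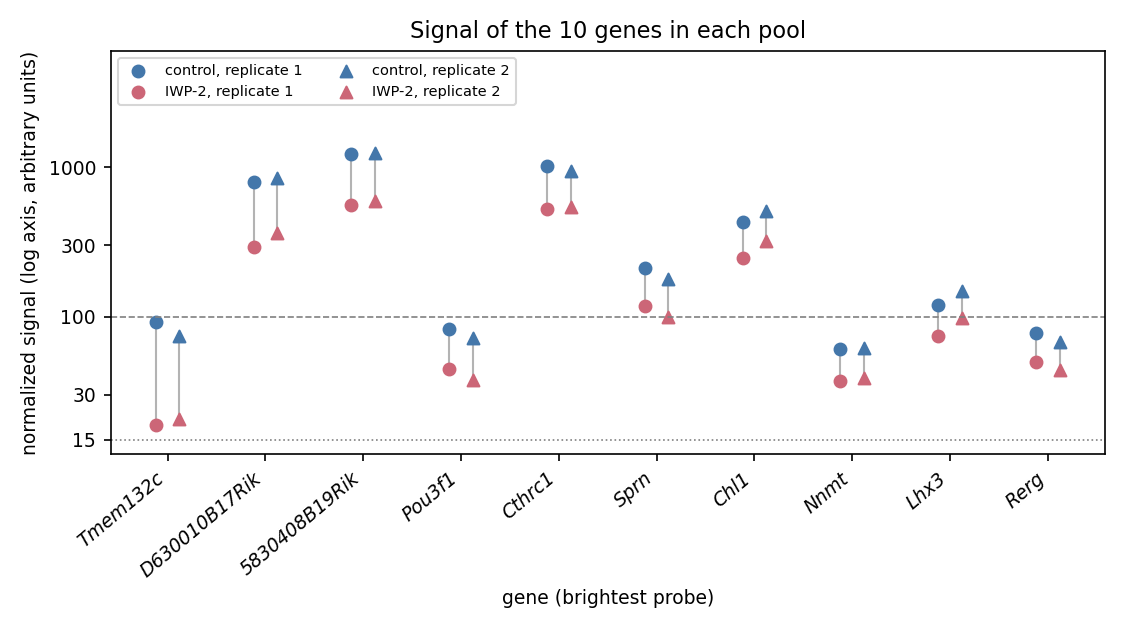
Normalized signal (log axis, arbitrary units) of the brightest probe of each of the 10 genes, with control pools in blue, IWP-2 pools in red, circles for replicate 1 and triangles for replicate 2. The dashed line is the signal limit of 100 and the dotted line the floor of 15. In each of the 20 control-treated pairs the treated pool is the lower one, which the choice of these genes fixed in advance. Of all genes tested, 29.1% were lower in both arrays. Signals of different probes are not comparable with each other.

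Among the secreted and surface proteins, *Cthrc1* gave signals of 1010 in the control pool and 525 in the treated pool of replicate 1, and of 939 and 539 in replicate 2. Both treated pools lay below both control pools, at 52.2% and 57.4% of the control in the same array. The log2 ratios of −0.94 (replicate 1) and −0.80 (replicate 2) gave a mean of −0.87 ± 0.096 (SD, n = 2 arrays).

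*Chl1* was measured by 2 probes. The brighter one, at chr6:103682933-103682992 on mm9, gave 429 (control) and 247 (treated) in replicate 1 and 508 and 322 in replicate 2. Its log2 ratios of −0.80 and −0.66 had a mean of −0.73 ± 0.098 (SD, n = 2). The dimmer probe, at chr6:103667565-103667624, went the same way by less, from 107 to 74.9 and from 142 to 96.2, and with 1.42-fold and 1.48-fold lower signals it did not reach the 1.5-fold limit in either array.

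*Sprn* gave 212 in the control and 118 in the treated pool of replicate 1, and 180 and 100 in replicate 2. The treated signal was 55.7% of the control in each array, so that *Sprn* had the smallest difference between the arrays among the 10 genes, with a mean log2 ratio of −0.84 ± 0.00097 (SD, n = 2). *Tmem132c* gave 91.7 and 18.8 in replicate 1 and 73.8 and 20.8 in replicate 2, which placed both treated pools just above the floor of 15. It had the lowest ratios of the 10 genes, 4.89-fold and 3.54-fold below control, and also the widest spread between the arrays, with a mean log2 ratio of −2.06 ± 0.33 (SD, n = 2).

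For the small GTPase gene *Rerg*, the signals were 78 (control) and 49.6 (treated) in replicate 1 and 68.2 and 44.1 in replicate 2. The groups did not overlap, but *Rerg* had the mean nearest to 0 of the 10 genes, with log2 ratios of −0.65 and −0.63 and a mean of −0.64 ± 0.018 (SD, n = 2). Single spots of *Rerg* ranged from −0.82 to −0.58 in replicate 1 and from −0.72 to −0.48 in replicate 2, which crosses the 1.5-fold line in both arrays.

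For the methyltransferase gene *Nnmt*, the brighter probe gave 60.6 (control) and 37.4 (treated) in replicate 1 and 61.6 and 38.7 in replicate 2. The pools of one treatment were nearly equal between the arrays, and the mean log2 ratio was −0.68 ± 0.016 (SD, n = 2). The second probe of *Nnmt* lay at or next to the floor of 15 in all pools. Before the floor was set, its signals were 15.1 and 8.03 in replicate 1 and 14.2 and 8.89 in replicate 2, again lower in the treated pools, by −0.92 and −0.68 on the log2 scale.

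Of the transcription factor genes, *Lhx3* gave 120 (control) and 74 (treated) in replicate 1 and 149 and 97.4 in replicate 2. It passed the 1.5-fold limit narrowly, with 1.62-fold and 1.53-fold lower signals and a mean log2 ratio of −0.65 ± 0.057 (SD, n = 2). *Pou3f1* gave 82.4 and 44.4 in replicate 1 and 71.7 and 37.8 in replicate 2. The treated pools held 53.9% and 52.7% of the control signal, and the mean log2 ratio was −0.91 ± 0.024 (SD, n = 2).

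The clone-named transcripts had the lowest ratios after *Tmem132c*. *5830408B19Rik* gave 1220 (control) and 554 (treated) in replicate 1 and 1240 and 598 in replicate 2, with a mean log2 ratio of −1.10 ± 0.065 (SD, n = 2). *D630010B17Rik* gave 794 and 294 in replicate 1 and 843 and 365 in replicate 2, with a mean of −1.32 ± 0.16 (SD, n = 2). These were the only genes among the 6 with control signals above 100 that were at least 2-fold lower in both arrays. For each of them 1 of 8 spots carried an outlier flag and was left out.

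**Figure D2:**
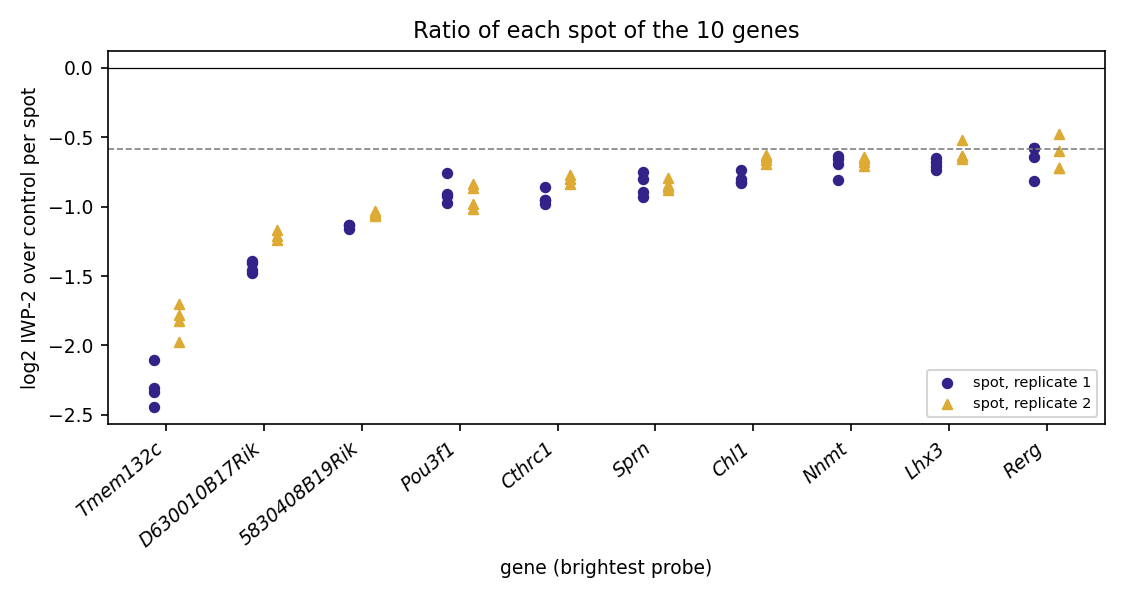
log2 ratio of IWP-2 over control for each spot of the brightest probe of the 10 genes, with replicate 1 as circles and replicate 2 as triangles; the dashed line marks a 1.5-fold lower signal. All spots lie below 0, the spots of *Tmem132c* spread most between the arrays, and single spots of *Lhx3* and *Rerg* lie above the dashed line.

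Every probe of the 10 genes, 12 in all, was well above background in all its spots in both channels. Of all spots on the array, 68.4% (control) and 68.8% (treated) were so in replicate 1, and 68.5% and 70% in replicate 2. Control and treated spots of a probe did not overlap in any of the 24 pairs of probe and array. Overlap was not counted for other probes, and nothing is read from it, since the genes were chosen on this contrast. The spots of 1 array share the same pools and measure the precision of the array only. Over all probes the median SD of log2 ratios between spots was 0.0505 (replicate 1) and 0.044 (replicate 2). The median SD between the arrays was 0.0719 for the 14336 genes tested, and *Chl1*, *Cthrc1*, *D630010B17Rik* and *Tmem132c* lay above it. The ratio was lower in replicate 1 (female pools) than in replicate 2 (male pools) for 9 of the 10 genes and for 49.1% of all genes tested, although *Sprn* differed by less than 0.01 between the arrays. The log2 ratios of all genes tested had an SD of 0.216 in replicate 1 and 0.166 in replicate 2, so that the scale of the arrays differed too.

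The medians of the 10 genes were −0.87 in replicate 1 and −0.82 in replicate 2, and the median over all genes tested was −0.01 for the mean of the arrays. The other genes tested whose pairs of ratios lay nearest to these medians, by Euclidean distance over the 2 arrays, were *Rnf43* (distance 0.0774), *Diras2* (0.0948), *Tnfaip6* (0.105), *Tnfrsf19* (0.127) and *Il11* (0.127). *Rnf43* is a classic WNT feedback gene that encodes a ubiquitin ligase for WNT receptors, and its signals went from 1280 to 702 and from 1110 to 661. *Tnfrsf19*, which encodes a receptor of the TNF family, went from 1500 to 813 and from 1320 to 816. Of the 15 WNT feedback genes listed for comparison, 10 were tested and 8 fell (*Apcdd1*, *Axin2*, *Lgr5*, *Nkd1*, *Notum*, *Rnf43*, *Tcf7* and *Wif1*), with a median log2 ratio of −0.80 and a range of −3.12 (*Lgr5*, at the floor in the treated pool of replicate 1) to 0.03. The share of all genes tested that fell by the same test (limma, adjusted p under 0.05) was 0.886%.

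**Figure D3:**
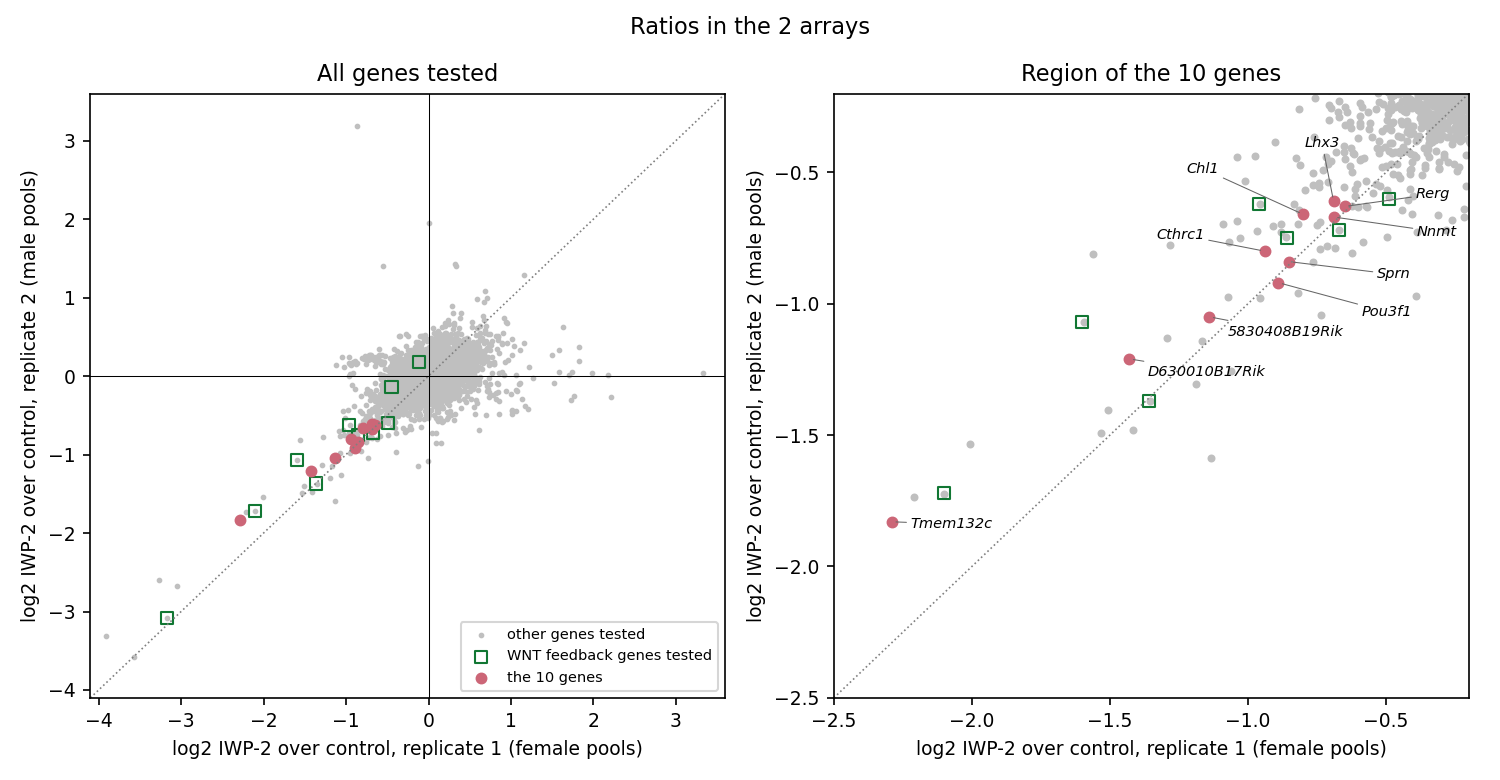
log2 ratio of IWP-2 over control in replicate 1 (x axis, female pools) against replicate 2 (y axis, male pools) for all 14336 genes tested on the left and for the region of the 10 genes on the right; the dotted line marks equal ratios. The 10 genes (red) lie between −2.29 and −0.65 on the x axis and between −1.83 and −0.61 on the y axis, among WNT feedback genes (green squares) that spread from −3.17 upward.

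To see whether relatives of the 10 genes moved with them, 119 genes of 8 lists were examined: gene families of the 10 genes and partners in their pathways. A probe was present for 118, and 70 were bright enough to be tested. Of these 70, 3 fell (4.29%, against 0.886% of all genes tested) and 1 rose (1.43%, against 0.363%). The median log2 ratio of the 70 genes was −0.03, beside −0.01 for all genes tested, and 23 were lower in both arrays, where 29.1% of all genes tested were. Counts of this size are given as a description of the lists.

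The gene that fell most was *Diras2*, which encodes a RAS-like small GTPase as *Rerg* does. It gave 303 (control) and 165 (treated) in replicate 1 and 256 and 155 in replicate 2, lower in both treated pools than in both control pools. Its mean log2 ratio was −0.80 (SE 0.073, limma adjusted p = 0.00883), and the other 8 RAS-like genes tested did not pass the test. *Rergl*, the closest relative of *Rerg* by name, lay at the floor in all pools.

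In the list on planar polarity and noncanonical WNT signaling, drawn up for *Cthrc1*, 20 of 25 genes were tested and the ligand genes moved in opposite directions. *Wnt11* fell from 126 to 93 in replicate 1 and from 166 to 106 in replicate 2, a mean log2 ratio of −0.54 (SE 0.077, limma adjusted p = 0.0344). *Wnt5a* rose from 503 to 763 and from 603 to 795, a mean of 0.50 (SE 0.077, limma adjusted p = 0.0416). Among the receptors, *Ror1* and *Ror2*, co-receptors for noncanonical ligands, had means of −0.41 (limma adjusted p = 0.126) and −0.37 (limma adjusted p = 0.106) and did not pass. *Celsr1* of the same list went the other way, with a mean of 0.35 (limma adjusted p = 0.109), and did not pass either. At an unadjusted limma p under 0.05, 4 genes of the list were lower and 2 were higher. *Ror1*, *Ror2* and *Celsr1* are named after their values were seen. So is *Fzd6*, the next gene to *Cthrc1* on its chromosome and itself a WNT receptor gene, with a mean of 0.08 (SE 0.079, limma adjusted p = 0.853).

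Among the LIM homeobox genes and their cofactors, 10 of 19 were tested beside *Lhx3*, and *Isl1*, which encodes a partner of LHX3 in motor neurons, fell. It gave 123 and 87.9 in replicate 1 and 87.6 and 65.6 in replicate 2, so that the treated pool of replicate 1 was not below the control pool of replicate 2. The mean log2 ratio of *Isl1* was −0.45 (SE 0.068, limma adjusted p = 0.0393). *Lhx4*, the nearest relative of *Lhx3*, lay at the floor in all pools, and *Ldb1*, the cofactor that binds LIM domains, had a mean of 0.01 (limma adjusted p = 0.995).

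No gene of the other lists passed the test. Of the POU domain genes, 3 of 14 were bright enough, and *Pou2f1* had the largest change with a mean log2 ratio of −0.11 (limma adjusted p = 0.703). Of the genes of nicotinamide and methyl-donor metabolism 19 of 25 were tested, with a median of −0.02. *Inmt*, which encodes a methyltransferase related to that of *Nnmt*, was higher in both arrays (457 to 697 and 424 to 549) with a mean of 0.49, just short of the threshold (SE 0.081, limma adjusted p = 0.0529). Of the L1 family and its partners 7 of 16 were tested, with *Cntn1* changing most (mean 0.23, limma adjusted p = 0.314). *Prnp*, the prion protein gene and relative of *Sprn*, had a mean of −0.04 (limma adjusted p = 0.979). *Tmem132a*, the only relative of *Tmem132c* bright enough to test, had a mean of 0.03 (limma adjusted p = 0.981).

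**Figure D4:**
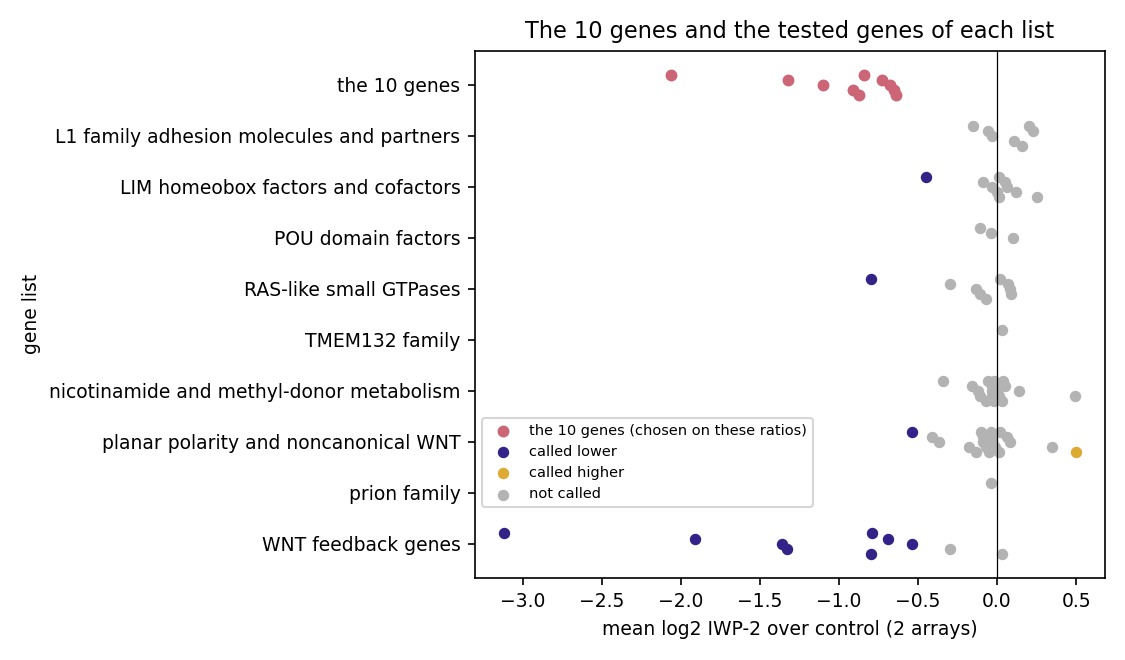
Mean log2 ratio of IWP-2 over control (x axis, 2 arrays) of the 10 genes (red), of the tested genes of the 8 related lists and of the tested WNT feedback genes; dark points fell and the yellow point rose by limma at an adjusted p of 0.05, grey points did not pass. Most related genes lie near 0, and 3 dark points (*Diras2* at −0.80, *Wnt11* at −0.54, *Isl1* at −0.45) stand in 3 different lists.

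These calls rest on 2 arrays. *Isl1* and *Wnt5a* did not pass without the added loess normalization (limma adjusted p = 0.0554 and 0.0581), and *Isl1*, *Wnt11* and *Wnt5a* did not pass when all probes of each gene were averaged, whereas *Diras2* passed in both settings. No gene passed, *Diras2* and the genes of the chromosomal neighbourhoods below included, when a control well above background replaced the signal limit and 19267 genes were tested by limma (0 at the adjusted threshold and 1913 at an unadjusted p under 0.05). Of the 19267 genes, 1130 had 0 spread between the arrays through the floor of 15, against 0 of the 14336 genes of the main test.

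Genes next to the 10 genes on the chromosomes were taken from the order of genes in the RefSeq table, in which 9 of the 10 were found, all but *5830408B19Rik*. Of the 18 nearest tested genes, 1 on each side, *Cyp2e1* fell and the median log2 ratio was −0.01. *Cyp2e1*, which encodes a cytochrome P450 enzyme, went from 763 to 64.4 in replicate 1 and from 713 to 59.7 in replicate 2, with a mean of −3.57 (SE 0.0664, limma adjusted p = 1.1e-05). It is no close neighbour of *Sprn*: 21 protein-coding genes without a tested probe lie between them. *Prickle1*, a planar polarity gene and the tested gene before *D630010B17Rik*, had a mean of −0.18 (SE 0.0665, limma adjusted p = 0.308). It is no close neighbour either: its probe lies at −756.4 kb from that of *D630010B17Rik* on mm9.

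As the position of each probe on mm9 is given in the array files, all tested genes within 1 Mb of a probe of the 10 genes were examined too, a window chosen after seeing the data. Of 145 such genes, 4 fell (2.76%, against 0.886% of all genes tested) and 0 rose at the limma threshold (0.363% of all genes tested), and the median log2 ratio was −0.01. The genes that fell lay near 3 of the 10 genes, namely *Sprn*, *Cthrc1* and *5830408B19Rik*. *Lhx3*, with 55 tested genes in its window, had none.

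*Samd5*, which encodes a protein with a SAM domain, was the closest of them. Its probe at chr10:9347521-9347580 (mm9, minus strand) lies 4776 bases from that of *5830408B19Rik*, on the same strand. *Samd5* gave 764 (control) and 363 (treated) in replicate 1 and 776 and 395 in replicate 2, with a mean log2 ratio of −1.02 (SE 0.069, limma adjusted p = 0.00215). Its log2 ratios of −1.07 and −0.98 stood beside −1.14 and −1.05 for *5830408B19Rik*. Whether the probes read the same transcript was not tested.

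Near *Cthrc1*, *Baalc* lay 135620 bases away and went from 486 to 300 and from 532 to 388, a mean log2 ratio of −0.58 (SE 0.0818, limma adjusted p = 0.0344). Without the added loess normalization *Baalc* did not pass (limma adjusted p = 0.0547), nor with the mean of all probes of a gene (limma adjusted p = 0.0729). Near *Sprn*, *Cox8b*, which encodes a muscle-type subunit of cytochrome c oxidase, lay 747.9 kb away and *Cyp2e1* 623.7 kb away. *Cox8b* went from 477 to 246 and from 399 to 203, with a mean of −0.97 (SE 0.0665, limma adjusted p = 0.00234).

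**Figure D5:**
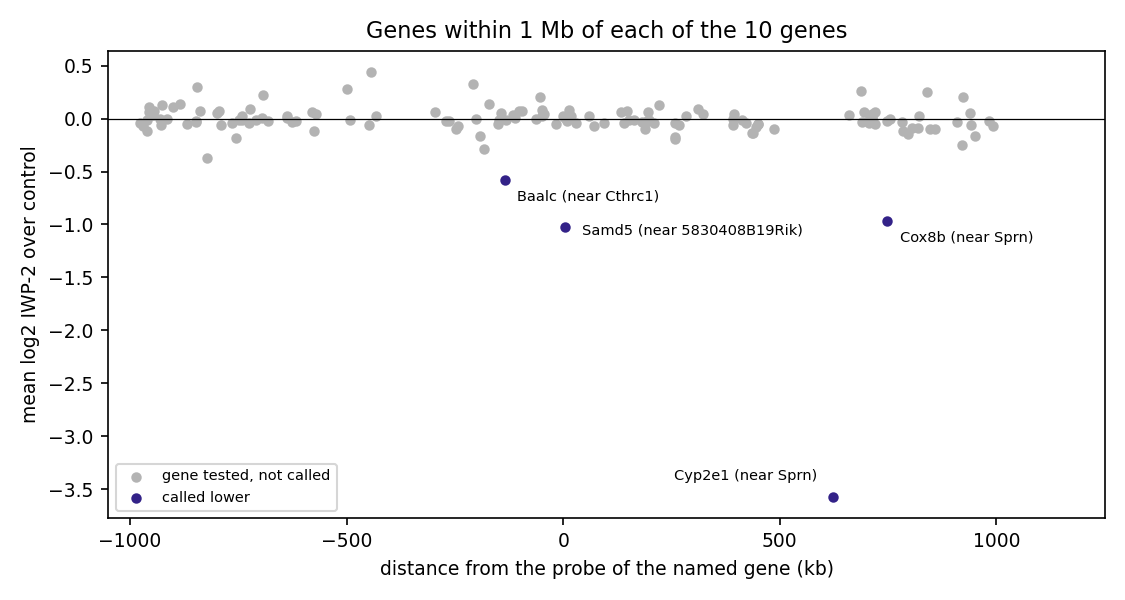
Mean log2 ratio of IWP-2 over control (y axis) of the 145 tested genes within 1 Mb of a probe of the 10 genes, against the distance between the probes (x axis, kb, mm9). Grey genes did not pass the limma threshold and lie around 0, and the 4 dark genes fell, with *Samd5* 4.8 kb from *5830408B19Rik* and *Cyp2e1* lowest at −3.57.

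Markers of the cell types of the ureter were present in all pools for smooth muscle (10 of 10 tested), urothelium (12 of 12) and lamina propria and fibroblasts (12 of 12), as fits the labelled tissue. The summed marker signal of the treated pool was 100% of the control in replicate 1 and 117% in replicate 2 for smooth muscle, and 128% and 105% for urothelium, and no marker of either passed the limma threshold (2 and 8 were higher at an unadjusted p under 0.05). For lamina propria and fibroblasts it was 85.2% and 101%. Most of this sum came from *Dcn*, *Col3a1*, *Col1a2*, *Col1a1* and *Lum*, with signals of 18600 to 31400 in the control pool of replicate 1. Of the 12 markers of this list 1 fell, *Aldh1a2*, which encodes a retinoic acid synthesising enzyme (1690 to 995 and 1460 to 1030, mean log2 ratio −0.63, SE 0.084, limma adjusted p = 0.028). At an unadjusted p under 0.05, 3 of these markers were lower and 1 was higher. *Car3* had a mean of −0.64 (limma adjusted p = 0.0778), *Thy1* one of −0.48 (limma adjusted p = 0.0547) and *Foxf1* one of 0.37 (limma adjusted p = 0.149). The part of these cells in the lower signals of the 10 genes was not tested.

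For *Pou3f1*, which Schwann cells are known to express, the Schwann cell markers were of interest. Of the 8 markers reported here 6 were tested and none passed (limma, with 2 lower and 2 higher at an unadjusted p under 0.05). The list is not complete here, so no summed signal is given for these cells, and their part in the lower signal of *Pou3f1* was not tested. Of the 6, 3 were lower and 3 higher in both arrays, with a median log2 ratio of −0.01. *Sox10*, a defining factor of these cells, had a mean of −0.18 (limma adjusted p = 0.316) and *Egr2* one of −0.27 (limma adjusted p = 0.291), while *Erbb3* (limma adjusted p = 0.353) and *S100b* (limma adjusted p = 0.173) had means of 0.24 each. Of the 7 neuronal markers tested, 4 were lower and 1 higher in both arrays, with a median of −0.08. Their summed signal was 115% and 99.4% of the control, most of it from *Uchl1* (7850 to 9580 and 9420 to 9610). Summed signals were 93.2% and 102% for endothelium and 109% and 105% for macrophages. For adipocytes, *Fabp4* and *Pparg*, which made up most of a sum of 122% in each array, were higher in both arrays, *Adipoq* and *Cfd* were lower in replicate 1 and higher in replicate 2, and *Lep* and *Cidec* lay at the floor. No marker of these groups passed the limma threshold (1 of the neuronal markers was lower, and 1 endothelial, 2 macrophage and 2 adipocyte markers were higher at an unadjusted p under 0.05).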

How the data were processed

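RNA from P0 ureters was measured on 2 two-colour arrays (limma 3.58.1, R 4.3.3). The deposited scanner files hold intensities, which per the file headers were background-corrected and dye-normalized by Feature Extraction 12.2.0.7 (the submitters' processing notes name 10.7.3.1), and a log10 ratio (red over green) from the authors' software, used to check directions. The authors' series table holds a score, the fold between treated and control with a sign and 1 decimal, used as an alternative. Each array had 157716 spots for 39429 probes, with 0 saturated spots.

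Control spots (17263) and outlier-flagged spots (3.32% and 3.22%) were left out. Signals were normalized by loess within each array, averaged per probe, floored at 15 and put on a log2 scale, and the brightest probe represented a gene. Genes with a mean signal above 100 in either condition (14336) were tested against a log2 ratio of 0 with lmFit and eBayes, with Benjamini-Hochberg adjustment at 0.05 and 1 residual degree of freedom. Each channel is 1 pool, and precision is limited by the number of arrays, which is 2. The eBayes step moderates the spread of a gene between the arrays with that of all genes tested (prior degrees of freedom 5.49). An SE or p-value therefore rests more on this shared spread than on the gene's own.

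The 10 genes, the lists and the tests were chosen with earlier results of these data known. Named are all 10 genes, list genes and neighbours that passed, the largest change in each related list, markers that passed and the 5 genes nearest in pattern, and other names were chosen after their values were seen. Some Schwann cell markers are not reported here. On simulated data with 14336 genes for this comparison, 91.2% of genes changed by 0.6, 100% of those changed by 0.8 and 100% of those changed by 1.2 on the log2 scale were recovered, and 2.01% of calls were false. The simulated noise was drawn at random across genes from the differences between the arrays, so that no gene had a spread of its own. Noise between spots was set below the measured median. These shares therefore need not hold for the measured genes. Alternatives covered background correction, normalization, flagged spots, floor, signal and fold limits, probe summary and leaving out each replicate.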

Additional observations from a re-analysis of the deposited data

Results flagged for a closer look

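Of 302 tested genes looked at, 2 had ratios of opposite sign in the female and the male array, with at least a 1.5-fold change in one. Both are fat cell markers. The 302 are those bright enough to test among the 10 genes, their relatives, the neighbours, the markers, the WNT feedback genes and the genes nearest in pattern. Differences are given as the log2 ratio of replicate 1 minus that of replicate 2. The fat cell gene *Adipoq* gave −0.55 and 1.40, a difference of −1.95, with signals of 300 (control) and 205 (treated) in replicate 1 and 66.3 and 175 in replicate 2. *Cfd*, also expressed by fat cells, gave −0.87 and 3.19, a difference of −4.06, with a control signal of 274 in replicate 1 and 19.7 in replicate 2. These differences between the arrays were not tested, as each sex and dye orientation has 1 array. None of the 10 genes could have ratios of opposite sign, since they were chosen for being lower in both arrays.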

How the results depend on the processing

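Each ratio already sets the control and treated pool of 1 array against each other, so the pairing is part of every test. No replicate number is left to serve as a block, and limma has no residual degree of freedom with 1 array. All 10 genes stayed lower under every alternative that gave them a value. The alternatives reuse the arrays on which the genes were chosen for being lower, so this is no separate support. Past the signal and fold limits were 6 of the 10 genes, 10 with a signal limit of 50 or with the control well above background in place of the limit, and 2 with a fold limit of 2. The count was 5 with median centring (without *Lhx3*), 4 with a signal limit of 200 (without *Lhx3* and *Sprn*) and 7 with normexp (without *Lhx3*, with *Pou3f1* and *Tmem132c*). Leaving out either replicate kept the count at 6, which could not change. All 10 genes were at least 1.5-fold lower in both arrays, and those outside the count had controls below 100 in both. Over all genes, the 51 lowered genes became 78 without replicate 1 and 160 without replicate 2. Over all genes the count was 89 with the control well above background and 19 with a fold limit of 2. Normexp background correction brought dim genes nearer to 0, with −1.49 for *Tmem132c*, −0.51 for *Rerg*, −0.50 for *Nnmt* and −0.56 for *Lhx3*. Averaging its probes put *Nnmt* at −0.34.

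The 127 genes that fell by limma became 257 with normexp and 50 with the mean of all probes. The 52 that rose became 32 without the added loess, 85 with median centring, 170 with normexp and 17 with the mean of probes. With the control well above background in place of the signal limit, 0 genes fell and 0 rose by limma (1913 at an unadjusted p under 0.05, beside 1851), related genes and neighbours included. In that setting 1130 of the 19267 genes tested had 0 spread between the arrays through the floor. The prior degrees of freedom of limma were then 0.8, beside 5.49 in the main test. Of the related genes, 4 passed: 2 without the added loess (0 higher), 8 with normexp (5 lower, 3 higher) and 1 with the mean of probes (1 lower, 0 higher). Called higher were 2 with median centring, 0 with a signal limit of 50 and 2 with a limit of 200, where 1 was lower. The 1 neighbour became 4 in the 1 Mb window, which was added after seeing the data. Of the tests of single genes under alternatives, 54 kept the call and 16 lost it with the same direction, and *Isl1* and *Wnt11* were not tested at a signal limit of 200. The causes were not tested. Dim signal limits *Nnmt*, *Pou3f1*, *Rerg* and *Tmem132c*, with control signals under 100.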

Other observations

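Some relatives of the 10 genes were too dim to be tested, with mean signals under 100, and are given as values chosen after they were seen. *Tmem132e*, a relative of *Tmem132c*, went from 51.4 (control) to 32.3 (treated) in replicate 1 and from 52.5 to 36.9 in replicate 2, log2 ratios of −0.67 and −0.51. *Rem2*, which encodes a RAS-like GTPase as *Rerg* does, went from 29.7 to 19.9 and from 24 to 16.2, log2 ratios of −0.58 and −0.57. Of the relatives of *Chl1*, *Nfasc*, an adhesion molecule of the L1 family, had log2 ratios of −0.88 and −0.28, and *Cntn3*, a contactin, was higher in both arrays with 0.59 and 0.70. *Lhx2*, a LIM homeobox gene, had −0.47 and −0.36 at signals of 22.5 or less, close to the floor of 15.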
